A study of Homo sapiens with 29 samples.

Results

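AQP3 and AQP7P3 are genes of the aquaglyceroporin branch of the aquaporins, measured here in HepG2 cells with and without a herb, named in the labels as CCL. Both were selected on the measured difference between CCL and untreated cells, so that difference is described here without a test. They are 2 of the 14884 genes with a named probe set on the array, found by their symbols in the probe table, and each has 1 probe set.

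HepG2 is a human liver tumour cell line that keeps many hepatocyte genes active. The series title gives the herb as Cratoxylum cochinchinense Lour. The CCL arm held HepG2 cells treated for 6, 12 and 18 h (3 arrays each) and for 24 and 48 h (2 arrays each). They were set against untreated HepG2 cells at 6, 12, 24 and 48 h (3 arrays each) and at 18 h (2 arrays), with 2 further untreated arrays at 0 h and no CCL array at that time. All cells were of this 1 line, and the labels name no vehicle and no dose. Total RNA was read on whole-transcript arrays, 29 in all, and values are log2 expression per probe set as deposited.

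Arrays carry set numbers 1 to 3, and nothing says whether a set is a culture of its own, so the spread between arrays may be technical. In bulk RNA, a change in the share of cells and a change in RNA per cell cannot be told apart. Array medians lay between 2.29 and 3.39. All arrays at 12 h, in both arms, had medians of 2.51 to 2.54, against 2.98 and 3.07 at 0 h. A total of 6 arrays differed by over 0.1 from the median of their time, a limit set after the data were seen. They were CCL set 1 at 6, 24 and 48 h, CCL set 3 at 18 h, and untreated set 1 at 18 and 24 h. Of 13 measured hepatocyte markers, all exceeded log2 5 on at least 2 arrays. ALB, the gene of serum albumin, was at 11.75 to 12.07 in CCL arrays and 11.76 to 12.11 in untreated arrays. TAT, tyrosine aminotransferase, was at 3.98 to 6.13 in CCL arrays and 3.13 to 6.22 in untreated arrays. With CCL, 1 of the 13 was called higher and 4 lower by limma at an adjusted p of 0.05, where 13.6% and 11% of all 6529 tested genes were.

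Aquaporins are membrane channels for water, and the aquaglyceroporins among them (AQP3, AQP7, AQP9 and AQP10) also pass glycerol. AQP3 is best known in the epidermis and the kidney collecting duct, and it also passes hydrogen peroxide. In liver, AQP9 is the channel known for glycerol uptake, and AQP7 is known for glycerol release from adipocytes. AQP7P3 is annotated in RefSeq as a transcribed pseudogene, and by its name it is a copy of AQP7.

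The promoter windows of AQP3 and of AQP7, the parent gene of the pseudogene, are shown because the genes are neighbours on chromosome 9. Each window runs from 250 bases before to 50 bases after the gene's start in RefSeq, on the gene's own strand, in build GRCh38.p14. The AQP3 window is chr9:33447544-33447843 (minus strand) and the AQP7 window is chr9:33402519-33402818 (minus strand). Capitals mark matches, on either strand, to the 6 motifs spelled out after the sequences.
AQP3: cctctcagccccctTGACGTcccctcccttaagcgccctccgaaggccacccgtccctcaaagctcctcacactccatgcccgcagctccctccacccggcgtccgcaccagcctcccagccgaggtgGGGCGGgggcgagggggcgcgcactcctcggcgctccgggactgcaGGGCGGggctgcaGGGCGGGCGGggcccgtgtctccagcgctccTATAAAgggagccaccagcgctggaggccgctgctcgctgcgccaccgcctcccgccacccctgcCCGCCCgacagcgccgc
AQP7: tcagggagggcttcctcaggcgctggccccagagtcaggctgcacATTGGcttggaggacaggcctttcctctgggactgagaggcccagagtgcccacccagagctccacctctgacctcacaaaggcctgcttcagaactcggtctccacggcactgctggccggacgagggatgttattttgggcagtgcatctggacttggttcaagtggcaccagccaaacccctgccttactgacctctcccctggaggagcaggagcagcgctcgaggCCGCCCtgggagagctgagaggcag

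The AQP3 window was 75.3% G and C and held 31 CpG, against medians of 58.7% and 14 over all 35116 windows of that length. It held a TATA box (TATAAA) starting 32 bases before the start. It also held 5 matches to the GC box GGGCGG, of which 2 overlap each other, and 1 match to the cyclic AMP half-site TGACGT. The AQP7 window was 62.7% G and C with 8 CpG. It held 1 GC box and 1 CCAAT box, both on the opposite strand, and no TATA box. Of all windows, 11.5% held the TATA box, 45% the GC box, 34.6% the CCAAT box and 7.98% the cyclic AMP half-site. The AP-1 motif TGANTCA was in neither of these windows and in 7.71% of all of them. The ATF4 element TGATGNAAT was likewise in neither of these windows and in 0.991% of all of them. These are matches of letters only, and no binding was measured.

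AQP3 was higher on every CCL array than on every untreated array. At 6 h it was 5.35, 6.53 and 6.06 in CCL sets 1, 2 and 3, against 4.97, 5.15 and 4.87 in untreated sets 1, 2 and 3. At 12 h it was 6.82, 6.60 and 5.46 in CCL cells, against 4.72, 3.83 and 3.55 in untreated cells. The lowest CCL array lay above the highest untreated array at both times. At 18 h it was 6.87, 6.92 and 6.70 in CCL sets 1, 2 and 3, against 2.57 and 4.77 in untreated sets 1 and 3. The CCL arrays at 18 h lay close together, while the untreated arrays lay far apart. Untreated set 1 at 18 h, the lowest AQP3 value of all, was also the array with the lowest median. At 24 h AQP3 was 6.66 and 6.69 in CCL sets 1 and 2, against 3.86, 4.18 and 5.02 in untreated sets 1, 2 and 3. At 48 h it was 5.52 and 6.64 in CCL sets 1 and 2, against 3.86, 4.67 and 4.97 in untreated sets 1, 2 and 3. CCL set 1 at 48 h was among the 3 lowest CCL arrays.

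**Figure D1:**
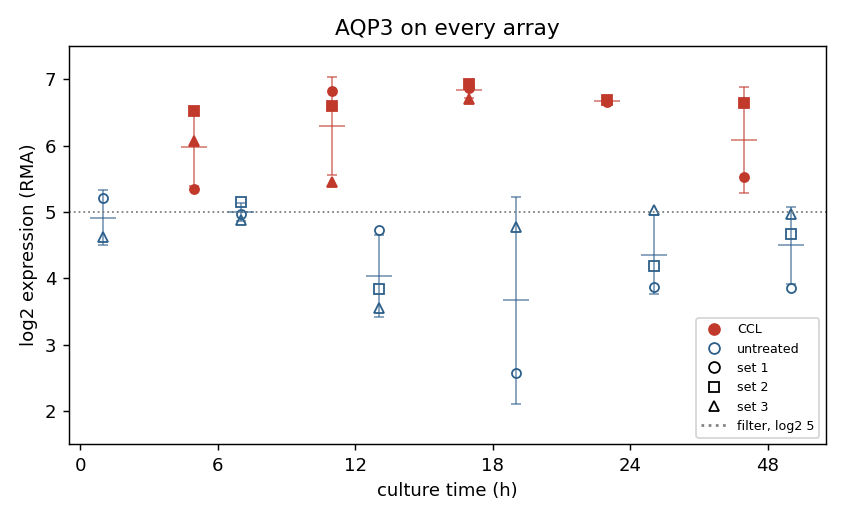
AQP3 log2 expression (vertical axis) on each of the 29 arrays by culture time in hours (horizontal axis, times evenly spaced); filled red symbols are CCL arrays, open blue symbols untreated arrays, bars give the group mean and SD, and the dotted line is log2 5. The 13 CCL arrays sit between 5.35 and 6.92, above all untreated arrays, which reach 5.21.

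The 13 CCL arrays spanned 5.35 to 6.92 with a median of 6.64, and the 14 untreated arrays of 6 to 48 h spanned 2.57 to 5.15 with a median of 4.70. The untreated arrays at 0 h were at 5.21 and 4.62. AQP3 exceeded log2 5, the filter used for tests, on all 13 CCL arrays and on 3 of the 16 untreated arrays. Its untreated level thus lay mostly below the filter. The separation of the arms also held after quantile normalization, with 5.39 to 6.99 in CCL arrays and 3.20 to 5.02 in untreated arrays. Within its array, AQP3 lay at percentile 81.9 to 91.6 of all probe sets in CCL cells and at 57.4 to 79.3 in untreated cells. Of the 6529 tested genes, 0.965% were higher on every CCL array than on every untreated array of 6 to 48 h, and AQP3 was chosen for such a response.

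By group mean, AQP3 was highest in CCL cells at 18 h, 6.83 ± 0.12 (SD, n = 3). CCL cells at 24 h followed with 6.68 ± 0.02 (SD, n = 2), then those at 12 h with 6.29 ± 0.73 (SD, n = 3), at 48 h with 6.08 ± 0.79 (SD, n = 2) and at 6 h with 5.98 ± 0.59 (SD, n = 3). Apart from the 18 and 24 h groups, whose arrays missed each other by less than 0.1, neighbouring CCL groups in this order overlapped. The next group was untreated cells at 6 h, 5.00 ± 0.14 (SD, n = 3), below every CCL array. The other untreated groups followed, each overlapping the next, down to untreated cells at 18 h with 3.67 ± 1.56 (SD, n = 2).

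The AQP3 difference, CCL minus untreated on the log2 scale, was 0.98 ± 0.45 (SE) at 6 h, or 1.98-fold. It was 2.26 ± 0.45 at 12 h and 3.16 ± 0.51 at 18 h, or 4.79-fold and 8.95-fold. It was 2.32 ± 0.51 at 24 h and 1.58 ± 0.51 at 48 h, or 5.00-fold and 3.00-fold. The size at 18 h depended on which control array was kept: it was 2.06 without untreated set 1 and 4.26 without untreated set 3. At 48 h it was 1.02 without CCL set 2. The mean of the 5 times was 2.06 ± 0.22, a 4.17-fold difference and the 12th highest of the 6529 tested genes, whose median was 0.01. Between arrays of the same set and time, AQP3 was higher with CCL in 12 of 12 pairs, which follows from the separation of the arms. A pairing by set number was not established, and the share of all tested genes with such a count was not taken.

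AQP7P3 was dim in untreated cells and brightest on CCL arrays of 18 to 48 h. At 6 h it was 3.70, 3.51 and 3.62 in CCL sets 1, 2 and 3, against 3.51, 3.14 and 3.13 in untreated cells. At 12 h it was 3.56, 3.19 and 2.91 in CCL cells, against 2.69, 2.63 and 2.21 in untreated cells. At 6 h CCL set 2 lay just below untreated set 1, and at 12 h the arms did not overlap. At 18 h it was 4.83, 3.81 and 5.86 in CCL sets 1, 2 and 3, against 2.66 and 2.80 in untreated sets 1 and 3. At 24 h it was 4.50 and 4.12 in CCL sets 1 and 2, against 2.16, 2.46 and 3.18 in untreated cells. At 48 h it was 6.25 and 4.45 in CCL sets 1 and 2, against 2.49, 2.46 and 3.01 in untreated cells. From 18 h on, every CCL array lay above every untreated array of any time.

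**Figure D2:**
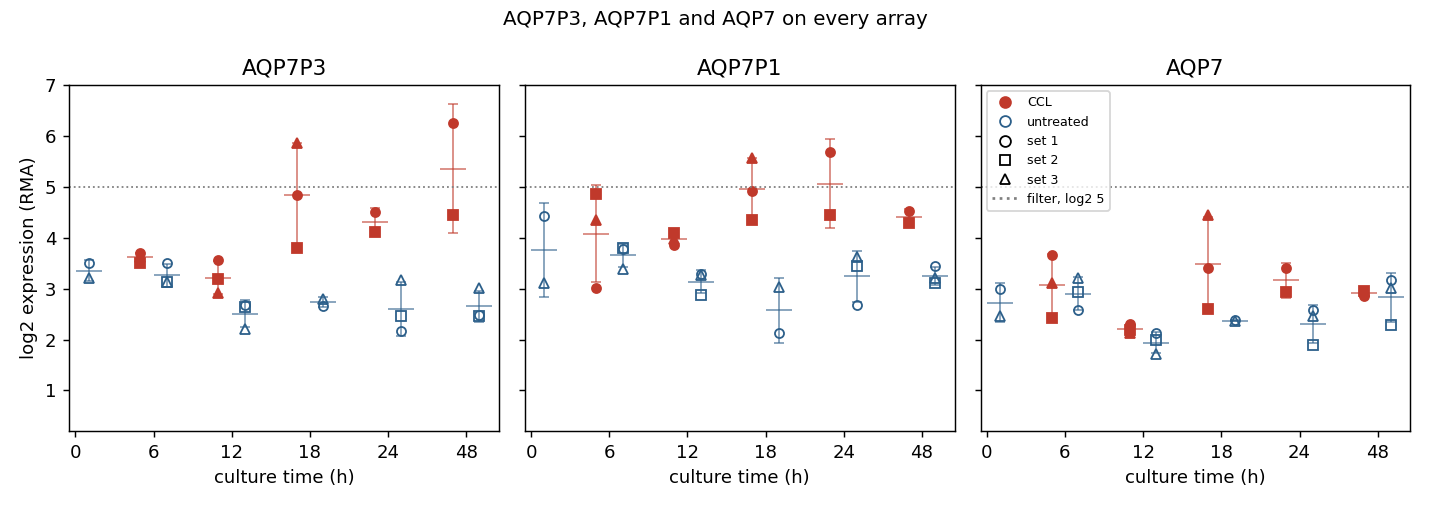
Log2 expression of AQP7P3, AQP7P1 and AQP7 (vertical axis) on each array by culture time in hours (evenly spaced); filled red symbols are CCL arrays, open blue symbols untreated arrays, symbol shapes mark sets, bars give the mean and SD, and the dotted line is log2 5. AQP7P3 passes log2 5 on 2 CCL arrays, AQP7P1 on 2 CCL arrays and AQP7 on none.

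The 13 CCL arrays of AQP7P3 spanned 2.91 to 6.25 with a median of 3.81, and the 16 untreated arrays spanned 2.16 to 3.51 with a median of 2.75. It lay at percentile 59.6 to 89.4 of all probe sets of its array in CCL cells, and at 26.0 to 60.7, around the middle, in untreated cells. A named gene was tested only when it exceeded log2 5 on at least 2 arrays. AQP7P3 did so on exactly 2, CCL set 3 at 18 h and CCL set 1 at 48 h, both among the arrays with shifted medians. It therefore passed the filter only through the arm in which it was higher.

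By group mean, AQP7P3 was highest in CCL cells at 48 h, 5.35 ± 1.27 (SD, n = 2), followed by 4.83 ± 1.02 at 18 h (SD, n = 3) and 4.31 ± 0.27 at 24 h (SD, n = 2). These 3 groups overlapped in that order. CCL cells at 6 h had 3.61 ± 0.10 (SD, n = 3). In deposited values, CCL cells at 12 h, 3.22 ± 0.33 (SD, n = 3), stood below untreated cells at 0 h, 3.35 ± 0.21 (SD, n = 2), and at 6 h, 3.26 ± 0.22 (SD, n = 3). The 12 h arrays of both arms had low medians. After quantile normalization the order was reversed, with 3.62 in CCL cells at 12 h against 3.15 and 3.10 in untreated cells at 0 and 6 h. The 4 other untreated groups lay between 2.51 and 2.73, each overlapping the next.

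The AQP7P3 difference, CCL minus untreated on the log2 scale, was 0.35 ± 0.39 (SE) at 6 h and 0.71 ± 0.39 at 12 h. It was 2.10 ± 0.43 at 18 h and 1.71 ± 0.43 at 24 h, or 4.28-fold and 3.27-fold. At 48 h it was 2.70 ± 0.43, or 6.48-fold. It was 1.80 without CCL set 1 at 48 h, the array with the highest AQP7P3 value. The mean of the 5 times was 1.51 ± 0.19, or 2.86-fold, the 27th highest of 6529. AQP7P3 was higher with CCL in 12 of 12 pairs of the same set and time. As for AQP3, that count has no share over all tested genes beside it, and the gene was chosen for this difference.

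The AQP3 difference was highest at 18 h and the AQP7P3 difference at 48 h, and the contrast between these time courses was not tested. This order stayed after quantile normalization, with 1.11, 2.11, 2.73, 2.42 and 1.87 for AQP3 at 6, 12, 18, 24 and 48 h, and 0.45, 0.78, 1.58, 1.75 and 2.91 for AQP7P3. It rested on few arrays, however. Without the 6 shifted arrays AQP3 was 2.26, 2.13, 2.09 and 2.15 at 12, 18, 24 and 48 h, with no peak at 18 h, and AQP7P3 was 1.52 at 18 h and 1.80 at 48 h. The median of all tested genes differed between the arms by -0.06, -0.06, 0.41, 0.04 and -0.26 at the 5 times. The differences of both genes exceeded that median at every time.

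**Figure D3:**
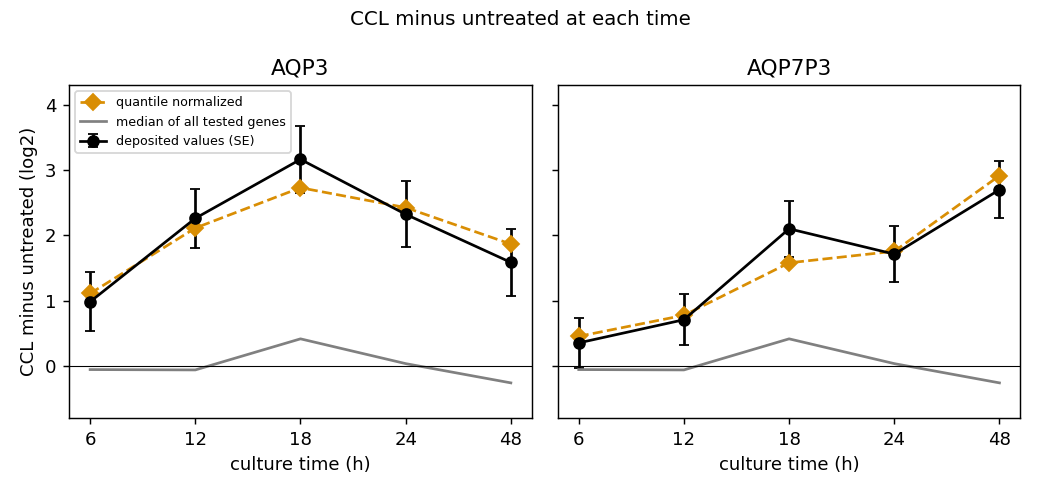
CCL minus untreated log2 difference (vertical axis) of AQP3 and AQP7P3 at 5 culture times in hours (horizontal axis, evenly spaced); black points are the deposited values with SE, orange diamonds the quantile-normalized values, and the grey line is the median of all tested genes. AQP3 is highest at 18 h (3.16) and AQP7P3 at 48 h (2.70).

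CCL set 1 at 48 h had the highest AQP7P3 value, 6.25, with one of the lower AQP3 values, 5.52. Pearson's r between the genes was 0.04 over the 13 CCL arrays and 0.68 over the 16 untreated arrays. With quantile-normalized values it was -0.09 and 0.37. Arrays of one time share culture time, and arrays of one set share a set number, so these are descriptions without a p.

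The change in untreated cells over time was tested for these genes, although the untreated arrays also entered the differences that led to their choice. Relative to 0 h, untreated AQP3 was 0.08 higher at 6 h and differed by -0.88, -1.25, -0.56 and -0.42 at 12, 18, 24 and 48 h, with SE of 0.51 to 0.56. Array medians were low at 12 h and in untreated set 1 at 18 h. After quantile normalization the differences were 0.13, -0.31, -0.79, -0.43 and -0.37 at 6, 12, 18, 24 and 48 h. In deposited values AQP3 did not pass limma's F-test over the 6 untreated times (adjusted p = 0.582). Without untreated set 3 at 18 h the adjusted p was 0.0311. For AQP7P3 the differences from 0 h were -0.09, -0.84, -0.62, -0.75 and -0.70. The same limma F-test gave an adjusted p of 0.684. All 16 untreated arrays of AQP7P3, at 2.16 to 3.51, lay below the filter, which it passed through 2 CCL arrays alone. At such low values the F-test cannot decide whether AQP7P3 changed in untreated cells. By this test 15 genes, 0.23% of those tested, were called, and 850 without untreated set 3 at 18 h.

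The rest of the aquaporin family stood low in HepG2 cells. Of 12 other family genes with a probe set, 11 stayed below log2 5 on every array. AQP9, the liver glycerol channel, lay at 1.63 to 2.62 in CCL arrays and 1.62 to 2.62 in untreated arrays. AQP11, an aquaporin of intracellular membranes, was the exception: it was 5.52 to 6.38 in CCL arrays and 6.10 to 6.82 in untreated arrays. AQP11 fell by 0.50 ± 0.10 with CCL over the mean of 5 times (limma, adjusted p = 5.03e-04), where 11% of tested genes were called lower. Of the 11 below the filter, AQP7, AQP8 and AQP12B had the largest mean differences, 0.50 ± 0.16, 0.43 ± 0.13 and 0.39 ± 0.13. With no filter on low values, limma called 1 family gene higher.

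The pseudogene AQP7P1 had differences near those of AQP7P3 from 6 to 24 h. It was 3.02 to 5.68 in CCL arrays and 2.12 to 3.79 in untreated arrays of 6 to 48 h, and 12 of 13 CCL arrays exceeded all of those. Untreated set 1 at 0 h was at 4.42, and 6 of 13 CCL arrays exceeded all 16 untreated arrays. Its differences were 0.42, 0.83, 2.38, 1.81 and 1.15 at 6, 12, 18, 24 and 48 h. AQP7P1 rose by 1.32 ± 0.19 in the mean (limma, adjusted p = 1.41e-05), where 13.6% of tested genes were called higher. All tested genes gave 885 higher and 721 lower calls, against 857 and 1133 after centring each array on its median. It too passed log2 5 on only 2 arrays, both with CCL, so its call is tied to the filter; with no filter its adjusted p by limma was 4.21e-05. AQP7 itself was 2.12 to 4.44 in CCL arrays and 1.71 to 3.21 in untreated arrays, below the filter, with differences of 0.16, 0.27, 1.11, 0.86 and 0.08. AQP7 and its copies are near-identical in sequence, so their probe sets may share signal, and this was not tested. Over the 13 CCL arrays, r with AQP7P3 was 0.54 for AQP7P1 and 0.64 for AQP7, and 0.37 and 0.48 with quantile-normalized values. Between AQP7P1 and AQP7 it was 0.41, and 0.04 with quantile-normalized values. AQP3, not a copy of AQP7, had r of 0.51 with AQP7P1, 0.04 with AQP7P3 and 0.03 with AQP7. With quantile-normalized values these were 0.47, -0.09 and -0.32.

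**Figure D4:**
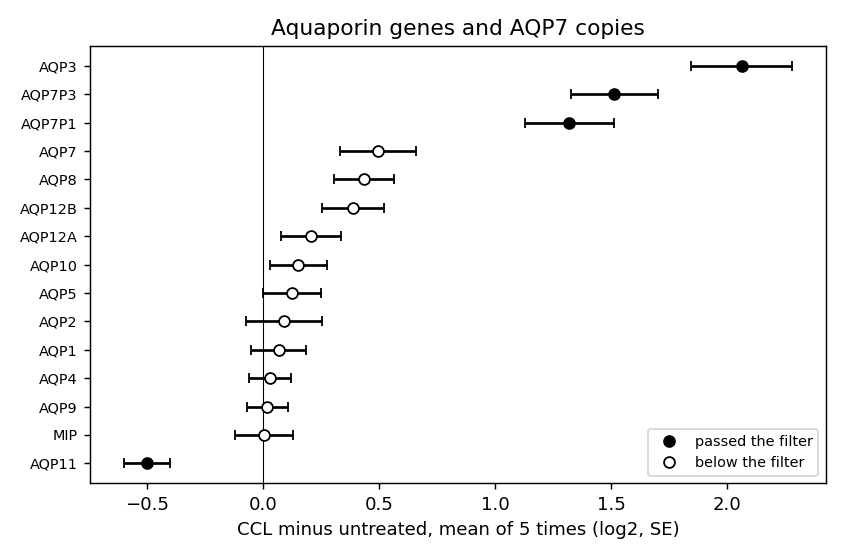
CCL minus untreated log2 difference, mean of 5 times with SE (horizontal axis), for AQP3, AQP7P3 and the 13 other measured aquaporin genes and AQP7 copies (vertical axis); filled points passed the filter and open points did not. AQP3 (2.06), AQP7P3 (1.51) and AQP7P1 (1.32) lie highest, and AQP11 (-0.50) lies lowest.

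Other genes of glycerol, peroxide, osmotic, EGF receptor and PPAR biology were counted with AQP3 and AQP7P3 left out. These lists were chosen with earlier results of these data known. Their counts, here and in the paragraphs on each list, are therefore descriptions and do not show an excess over all tested genes. Of 83 measured genes in these 5 lists and both aquaporin lists, 50 were tested, of which 15 rose and 10 fell in the mean of 5 times, where 13.6% of all tested genes rose and 11% fell. Of these 50, AQP7P1 and WNK4 rose and SGK1 fell after passing the filter through 1 arm alone. At any time, 14 of them were called by limma's F-test, where 13.4% of all tested genes were. Without CCL set 1 at 48 h, 6 fell, and without untreated set 3 at 18 h, 22 were called at any time.

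Of the glycerol and triglyceride genes, 3 of 15 tested rose and 6 fell, where 13.6% and 11% of all tested genes did, with a median of -0.21 against 0.01 over all tested genes, and 3 fell without CCL set 1 at 48 h. GPAT3, which makes the first acylated glycerol phosphate, was 6.19 to 8.48 in CCL arrays and 4.11 to 6.01 in untreated arrays, and rose by 2.05 ± 0.18 (limma, adjusted p = 9.93e-09). PLIN2, a coat protein of lipid droplets, was 5.51 to 8.83 in CCL arrays and 4.16 to 5.49 in untreated arrays, and rose by 1.502 ± 0.21. GPAT3 and PLIN2 did not overlap between the arms, and 0.965% of all tested genes were higher on every CCL array than on every untreated array of 6 to 48 h. LPIN2, a phosphatidate phosphatase, rose by 0.71 ± 0.12. PNPLA3, a lipid-droplet lipase, fell by 0.87 ± 0.21, MOGAT2, an acyltransferase, by 0.73 ± 0.16, and GK5, a glycerol kinase family member, by 0.58 ± 0.20. The call of GK5 was lost without any 1 of 15 arrays.

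Of the genes that make or remove hydrogen peroxide, 4 of 17 tested rose and 1 fell, where 13.6% and 11% of all tested genes did, with a median of -0.02. After quantile normalization 3 fell, and without the 6 shifted arrays 2 rose. SRXN1, which repairs oxidized peroxiredoxins, was 8.19 to 9.70 in CCL arrays and 7.01 to 8.41 in untreated arrays, and rose by 1.06 ± 0.14 (limma, adjusted p = 2.11e-06). TXNRD1, thioredoxin reductase, rose by 0.54 ± 0.13, and TXN, thioredoxin, by 0.38 ± 0.11. CAT, catalase, fell by 0.57 ± 0.16.

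All 6 measured osmotic response genes were tested; 2 rose and 2 fell, where 13.6% and 11% of all tested genes did, with a median of 0.16. STK39, a kinase that phosphorylates ion cotransporters, rose by 0.85 ± 0.09 (limma, adjusted p = 2.33e-07), and SGK1, a kinase induced by osmotic stress, fell by 0.85 ± 0.17 (limma, adjusted p = 5.17e-04). WNK4, a kinase upstream of STK39, rose by 0.46 ± 0.17 and HSPA4L, an osmotic stress chaperone, fell by 0.49 ± 0.17. With no filter WNK4 was not called (limma, adjusted p = 0.0785). WNK4 exceeded log2 5 on 2 CCL arrays and no untreated array, and SGK1 on 4 untreated arrays and no CCL array, so each passed the filter only through the arm in which it was higher. The calls of WNK4 and HSPA4L were lost without any 1 of 18 and 8 arrays.

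Of the EGF receptor genes, 3 of 6 tested rose and none fell, where 13.6% and 11% of all tested genes did, with a median of 0.57. With the set number as a block, 1 fell. EREG, a ligand, was 5.00 to 6.62 in CCL arrays and 1.96 to 5.15 in untreated arrays, and rose by 1.91 ± 0.22 (limma, adjusted p = 4.49e-07). EGFR, the receptor, rose by 0.87 ± 0.17, and ERRFI1, its feedback inhibitor, by 0.84 ± 0.15. Of the PPAR genes, 2 of 4 tested rose, where 13.6% of all tested genes did, with a median of 0.35. PPARG, a nuclear receptor of adipocyte differentiation, was 4.99 to 6.30 in CCL arrays and 3.68 to 5.13 in untreated arrays, and rose by 0.98 ± 0.12 (limma, adjusted p = 1.06e-06). PPARD, its relative, rose by 0.32 ± 0.10, a call lost without CCL set 1 at 24 h or at 48 h.

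The 5 tested genes with the highest Pearson r with AQP3 over the 29 arrays, in deposited values, were PPARG, FHL2, MAPK13, SMOX and CSGALNACT2, with r of 0.90 to 0.91. Their order changed with quantile normalization, where CSGALNACT2 had 0.91 and PPARG 0.87. The arms form separate clusters, so r was also taken within each. It was 0.36 to 0.63 over the 13 CCL arrays and 0.67 to 0.89 over the 16 untreated arrays for these 5 genes. For AQP7P3 the closest were NOS3, STK39, CXCL16, ARSG and RGCC, with r of 0.88 to 0.91. Within the CCL arrays, which also entered the choice of these genes, r was 0.82 to 0.92, and within untreated arrays it was 0.52 to 0.73. NOS3, ARSG and RGCC, like AQP7P3, exceeded log2 5 on CCL arrays alone. These lists depended on the arrays: without the 6 shifted arrays, 1 of 5 genes was kept for each member.

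The nearest measured neighbours of AQP3 in RefSeq order were also compared. CHMP5, an endosomal sorting protein, rose by 0.39 ± 0.12 (limma, adjusted p = 0.0217) and NOL6, a nucleolar protein, by 0.43 ± 0.09 (limma, adjusted p = 0.00171). Of all tested genes, 13.6% were called higher. AQP7 and SUGT1P1, the other neighbours, were below the filter and not tested, with differences of 0.50 ± 0.16 and 0.26 ± 0.14. The call of CHMP5 was lost without CCL set 1 at 24 or 48 h or untreated set 1 at 18 h. Of the 4 nearest to AQP7P3 (FLJ43315, FOXD4L5, ZNG1C and PGM5), ZNG1C was tested and its difference was 0.06 ± 0.14 (limma, adjusted p = 0.813).

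Most measured markers of cell types known for AQP3 or AQP7 stayed low. Of 10 measured keratinocyte genes, 9 stayed below log2 5 on every array, with KRT5 at 1.89 to 3.02 in CCL arrays and 1.66 to 2.90 in untreated arrays. The mean of all 10 was 2.72 to 3.50 in CCL arrays and 2.45 to 3.07 in untreated arrays. SFN, an epithelial 14-3-3 protein, was the exception and rose by 1.78 ± 0.15 (limma, adjusted p = 4.04e-09). All 5 measured adipocyte genes, both measured kidney collecting duct genes and the 1 measured erythroid gene stayed below log2 5 on every array. The collecting duct list had 2 of 6 genes measured, AQP2 and AVPR2, and the erythroid list 1 of 8, EPOR. So few genes cannot show whether markers of these cell types were absent.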

How the data were processed

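The authors deposited log2 values for 53617 probe sets on 29 arrays, which were used unchanged. Per the submitters' processing notes, RMA and Affymetrix Expression Console 1.1 were used to make them. Which arrays were normalized together, and the genome build, are not given in the sources used here. Probe sets were named from the platform annotation; 16098 had 1 symbol, none had several and 37519 had none and were not analysed here. The probe set with the highest mean stood for a gene. Tests with limma covered the 6529 genes that exceeded log2 5 on 2 or more arrays (limma 3.58.1, R 4.3.3). The fit had 1 mean per arm and time over all 29 arrays, with two-sided tests, Benjamini-Hochberg adjustment over all tested genes and calls at 0.05. SE come from this fit. Groups follow the sample titles.

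The members and lists were chosen with earlier results of these data known. From each list the 3 largest rises and 3 largest falls were named, and for each member the 5 tested genes with the highest r and the 2 nearest measured genes on either side. The scripts were tested on simulated data. Alternatives were quantile normalization, array-median centring, no or a stricter filter, array weights, set as a block, single arrays left out and, added later, the 6 shifted arrays left out. For arrays, the number of arrays limits precision. Sequences are from RefSeq (GRCh38.p14).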

Additional observations from a re-analysis of the deposited data

How the results depend on the processing

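For AQP3 and AQP7P3 the difference at each time and in the mean kept its sign under every alternative in which it was computed. It was not computed with array weights or with the changed filters. A filter at log2 6 left AQP7P3 out, and each gene has 1 probe set, so no other probe set could be tried. Leaving out 1 array at a time, the AQP3 mean ran between 1.84 and 2.28, the AQP7P3 mean between 1.33 and 1.69, AQP3 at 18 h between 2.06 and 4.26, and AQP7P3 at 48 h between 1.80 and 3.59. Without the 6 shifted arrays, AQP3 was 2.13 at 18 h, and AQP7P3 was 1.52 at 18 h and 1.80 at 48 h.

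The untreated course was least stable. With array weights, whose iteration stopped before it converged, limma's adjusted p was 0.00512 for AQP3 and 0.00259 for AQP7P3. A total of 4126 genes were then called in place of 15. AQP7P3 lay below the filter on every untreated array, so no conclusion is drawn from its p. With 1 array left out, the AQP3 p ran from 0.0311 to 0.794, and 0 to 850 genes were called (0 without untreated set 1 or set 3 at 12 h, where limma's unadjusted p was under 0.05 for 475 and 499 genes). Counts were 0 after quantile normalization (493 unadjusted), 2 after centring, 146 with no filter, 3 at log2 6, and 724 without the 6 shifted arrays. The cause was not tested. Genes called lower in the mean were 1237 after quantile normalization and 1133 after centring, against 721, and 408 to 1223 with 1 array left out (408 without CCL set 1 at 48 h, 431 without CCL set 1 at 24 h, 1223 without CCL set 2 at 48 h). Genes called at any time were 1684 with array weights, against 874, and 683 to 2291 with 1 array left out (2291 without untreated set 3 at 18 h, 2096 without CCL set 2 at 48 h). Among listed genes, 12 to 22 were called at any time and 6 to 11 were lower.

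Same-numbered arrays correlated over 0.1 in 9 of 12 pairs (r of -0.07 to 0.44). In 7 of the 12, the same-numbered untreated array was the one that correlated best with the CCL array. This did not establish a pairing, and the main fit held no term for set. With the set number as a replicate block, 1830 genes were called at any time, 167 in the untreated course and 24 listed genes at any time; 1 EGF receptor gene was then lower. Of the 5 genes most like AQP3, 3 were kept with quantile normalization, 3 with centring, 2 by Spearman's rho and 1 without the shifted arrays; for AQP7P3 these were 0 by rho and 1 without those arrays.

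Calls lost with no filter were GK5 (adjusted p = 0.0703), WNK4 (0.0785) and HSPA4L (0.0597). Without the 6 shifted arrays, TXN (0.1998), WNK4 (0.664), HSPA4L (0.0805), PPARD (0.217) and CHMP5 (0.359) were lost. With array weights WNK4, PPARD (0.0817), APOA2 (0.0552) and CHMP5 (0.0782) were lost, and with centring APOA2 (0.0508). The adjusted p-values are limma's.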

Other observations

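The other cell type lists gave these values. Of 13 hepatocyte markers, all tested, 1 rose and 4 fell with CCL, where 13.6% and 11% of all tested genes did. APOA2, an apolipoprotein, rose by 0.29 ± 0.08, while FGG and FGA, fibrinogen chains, fell by 0.62 ± 0.14 and 0.48 ± 0.14, and TTR, transthyretin, by 0.43 ± 0.13. The call of FGA was lost without CCL set 1 at 24 h and that of TTR without untreated set 3 at 18 h. Of 4 measured leukocyte genes, 2 were tested and 1 rose, where 13.6% of all tested genes did. It was CD68, a lysosomal membrane protein, which rose by 1.09 ± 0.12 (limma, adjusted p = 2.45e-07). LYZ, at 10.25 to 10.95 in CCL arrays and 10.38 to 10.85 in untreated arrays, was not called. CD14 and CD163 stayed below log2 5 on every array. Of 5 measured cholangiocyte genes, 4 were tested and 1 rose, where 13.6% of all tested genes did. It was KRT19, a keratin, which rose by 0.52 ± 0.13 (limma, adjusted p = 0.00507). SOX9, EPCAM and SPP1 were not called. They were at 8.58 to 9.72, 8.40 to 9.39 and 10.03 to 11.77 in CCL arrays. In untreated arrays they were at 8.88 to 9.88, 7.77 to 9.23 and 9.59 to 11.61. KRT7 stayed below log2 5 on every array.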
